A study of Mus musculus with 12 samples.

Results

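Nicotinamide nucleotide transhydrogenase (Nnt) and 9 further genes of the mitochondrial NADPH and peroxide system were described in mouse liver: Idh2, Txnrd2, Txn2, Prdx3, Prdx5, Glrx2, Gpx1, Gpx4 and Sod2. They were chosen by name and read through the probe sets that the platform annotation lists under their symbols. A probe set was found for 9 of the 10 genes, 1 each, among 21212 probe sets. Prdx5, a mitochondrial and peroxisomal peroxiredoxin, has no listed probe set and was not analysed here. The liver of 12 mice, 1 Affymetrix whole-transcript array per mouse, was compared between 2 inbred strains and between the sexes.

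The 4 groups were KK males, KK females, B6 males and B6 females, with 3 mice in each. KK stands for the strain that the labels call KK/HIJ in one field and KK/J in another, and B6 stands for C57BL/6J. KK is an inbred strain used as a model of obesity and type 2 diabetes, and B6 is the common laboratory strain that served here as its comparison. All mice ate chow and were 8 weeks old, had been housed singly for 3 days and had fasted for 4 hours. Mice were killed by cervical dislocation and then perfused with PBS. The large lobe of each liver spent 24 hours in RNAlater before it was frozen. Each array received target prepared from 300 ng of total RNA.

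NNT sits in the inner mitochondrial membrane and uses the proton gradient to pass hydride from NADH to NADP+, which makes NADPH in the matrix. IDH2 makes NADPH in the same compartment from isocitrate. That NADPH keeps thioredoxin reductase 2 (Txnrd2), thioredoxin 2 (Txn2) and peroxiredoxin 3 (Prdx3) reduced, a relay that removes hydrogen peroxide, and it also recycles the glutathione used by glutaredoxin 2 (Glrx2) and the glutathione peroxidases. C57BL/6J mice are known for a deletion of several exons of Nnt, with loss of the protein, while many other strains carry an intact gene. The genotype of these mice at Nnt was not measured.

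Values are log2 expression per probe set, so that a difference of 1 is a doubling, and differences are KK minus B6 or male minus female. Levels of different genes are not compared, since each probe set has its own probes, apart from a rough rank given for neighbours of Nnt. Standard errors (SE), intervals and adjusted p-values come from 1 limma fit of the 12 arrays, a gene counted as called where its p, adjusted over all 21212 probe sets, was under 0.05, and SDs describe the 3 mice within a group. The interquartile range of an array ran from 2.64 to 2.97. Over all probe sets, the correlation between arrays was 0.992 to 0.996 within a group and 0.975 to 0.993 between groups. Xist read 10.29 to 10.95 in the 6 females and 4.21 to 4.70 in the 6 males, which fits the labelled sexes. All 10 hepatocyte markers were measured, and their mean lay between 12.89 and 13.02 on every array. Single markers did differ between the strains over both sexes, with Apob higher in KK by 0.22 and Apoa1 lower, at -0.34. These are whole-liver samples, so fewer cells of a type and less RNA per cell cannot be told apart.

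Over both sexes, 4 of the 9 genes were called between the strains, and they went in both directions: Nnt and Sod2 were higher in KK, and Prdx3 and Idh2 were lower. Nnt had the largest difference of the 9, at 1.96-fold, and Prdx3 followed at 1.44-fold. Of all probe sets, 11.7% were called in this comparison, 5.42% higher and 6.31% lower in KK. The median difference of the 9 genes was -0.05, against 0.01 over all probe sets, and the gap all but closed after quantile (-0.0010 against 0.0033) and cyclic loess normalization (-0.0027 against 0.0012).

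**Figure D1:**
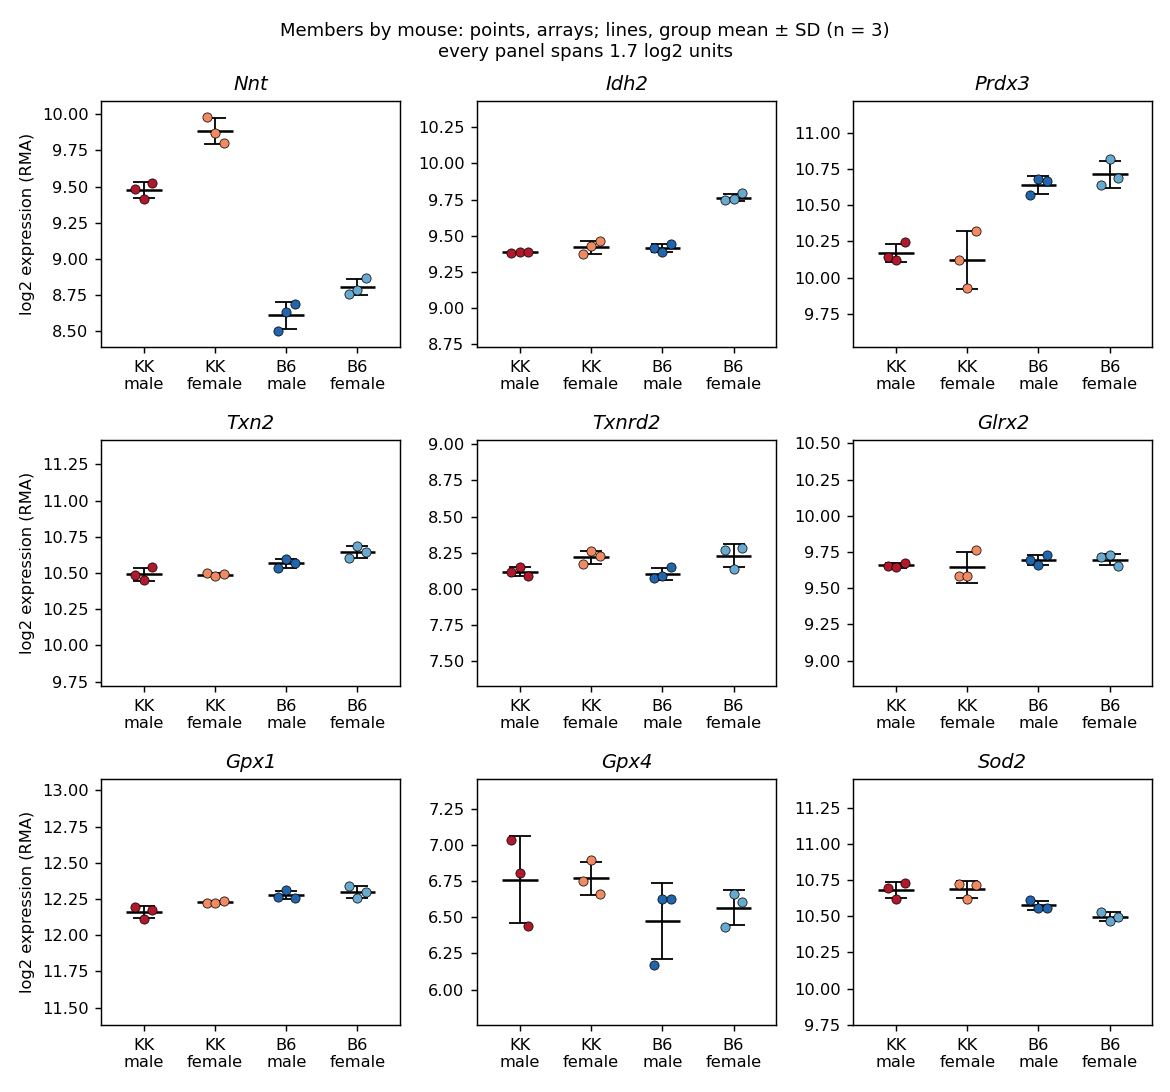
Log2 expression (RMA) of the 9 measured genes in each mouse, for KK males, KK females, B6 males and B6 females. Points are single arrays, lines are group means with the SD (n = 3), and every panel covers the same span in log2 units. Nnt separates the strains with all 6 KK mice above all 6 B6 mice, Prdx3 separates them the other way, and Idh2 stands high in B6 females alone.

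Nnt (chromosome 13, 119335527 to 119409257, build GRCm38.p6) read 9.49, 9.41 and 9.52 in KK males and 9.98, 9.87 and 9.80 in KK females, against 8.51, 8.63 and 8.69 in B6 males and 8.76, 8.79 and 8.87 in B6 females. The lowest KK mouse, a male, stood above the highest B6 mouse, a female, by 0.55, and within each strain all females stood above all males. Of all probe sets, 5.98% had 6 KK values that did not overlap the 6 B6 values, 2.66% above and 3.32% below. In addition, 21.7% in males and 20.6% in females had 3 KK values that did not overlap the 3 of B6. Group means were 9.47 ± 0.0553 in KK males, 9.88 ± 0.0895 in KK females, 8.61 ± 0.0953 in B6 males and 8.80 ± 0.0548 in B6 females (SD, n = 3 each). The strain difference over both sexes was 0.97 (SE 0.051, 95% interval 0.86 to 1.08, adjusted p = 1.43e-07), which is 1.96-fold. It was 0.86 in males (adjusted p = 1.96e-05) and 1.08 in females (adjusted p = 2.51e-06).

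Which exons the probes of the Nnt set lie in was not used here, so the B6 value cannot be split into exons inside and outside the known deletion. The deposited values carry no detection call, so the B6 value shows a lower reading and says nothing of presence or absence.

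None of the 9 measured genes nearest to Nnt on chromosome 13 was called between the strains. The 5 nearest measured genes at lower coordinates, from 542.954 to 3025.839 kb away, were Fgf10, Mrps30, Emb, Parp8 and Isl1, with strain differences between -0.04 and 0.02. All of these but Mrps30 read low. By mean, Emb stood at percentile 5.14 of all probe sets, Fgf10 at 13.4, Parp8 at 28.4 and Isl1 at 29.2. A strain difference in genes that read this low may not show, so their small differences are weak information. On the other side only 4 measured genes could be placed from the reference used here, Paip1, 4833420G17Rik, 3110070M22Rik and Tmem267. Paip1, a regulator of translation 19.074 kb from Nnt, differed by -0.19 (95% interval -0.35 to -0.03, adjusted p = 0.137). 3110070M22Rik differed by 0.23 (95% interval 0.04 to 0.41, adjusted p = 0.131). 3110070M22Rik and Tmem267 overlap on the chromosome. With the replicate number as a block, Paip1 (adjusted p = 0.0462) and 3110070M22Rik (adjusted p = 0.0245) were called, and likewise with each array's interquartile range as a covariate (adjusted p = 0.0354 and 0.0283).

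**Figure D2:**
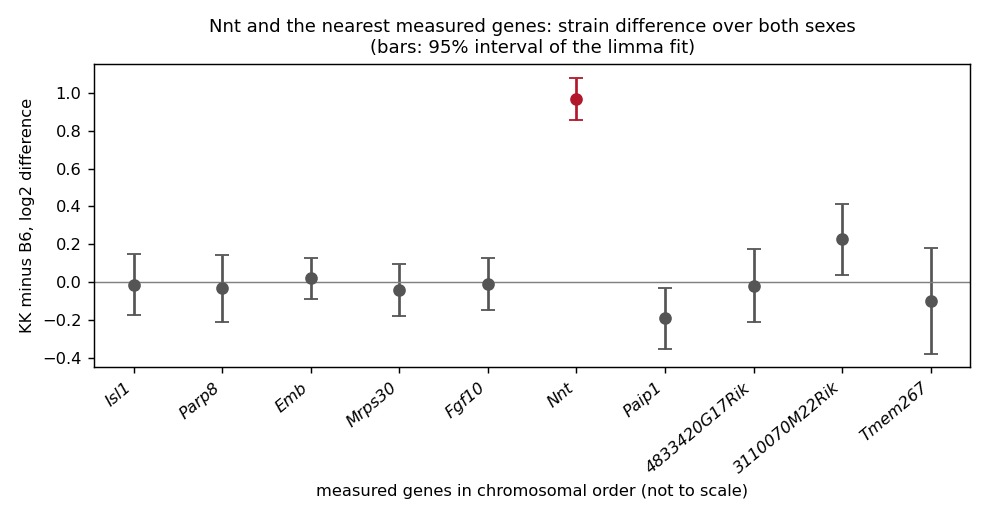
KK minus B6 log2 difference over both sexes of Nnt and the 9 nearest measured genes, in chromosomal order (not to scale). Points are the limma estimates and bars their 95% intervals. Nnt lies at 0.97 while its neighbours lie between -0.19 and 0.23. Emb, Fgf10, Parp8 and Isl1 read low on these arrays, where a difference may not show.

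Idh2 (chromosome 7, 80094845 to 80118608), the NADP-dependent isocitrate dehydrogenase of the matrix, had a different layout. It read 9.38, 9.39 and 9.39 in KK males and 9.37, 9.43 and 9.46 in KK females, against 9.42, 9.39 and 9.45 in B6 males and 9.75, 9.75 and 9.79 in B6 females. The 3 B6 females stood above every other mouse, and the other 9 mice lay within a narrow band in which KK and B6 males overlapped. The mean was 9.40 in KK and 9.59 in B6, a difference of -0.19 (SE 0.039, 95% interval -0.27 to -0.10, adjusted p = 0.00745, 1.14-fold lower in KK). In females the difference was -0.34 (SE 0.055, adjusted p = 0.00244). In males it was -0.03 (95% interval -0.15 to 0.09, adjusted p = 0.836), and it became 0.03 after quantile or cyclic loess normalization.

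Prdx3 (chromosome 19, 60864066 to 60874538), the peroxiredoxin that removes hydrogen peroxide in the matrix with electrons from thioredoxin 2, was lower in KK of both sexes. It read 10.14, 10.12 and 10.24 in KK males and 10.12, 9.93 and 10.33 in KK females, against 10.57, 10.68 and 10.67 in B6 males and 10.64, 10.82 and 10.69 in B6 females. All 6 KK mice stood below all 6 B6 mice, and KK females spread the most. The difference was -0.53 (SE 0.067, 95% interval -0.67 to -0.38, adjusted p = 0.000218), which is 1.44-fold lower in KK. It was -0.47 in males (SE 0.094, adjusted p = 0.012) and -0.59 in females (adjusted p = 0.00243). Without KK male 1 the call in males was lost (adjusted p = 0.0528).

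Txn2 (chromosome 15, 77915051 to 77928994), which hands electrons to Prdx3, read 10.48, 10.45 and 10.54 in KK males and 10.50, 10.48 and 10.49 in KK females, against 10.53, 10.59 and 10.57 in B6 males and 10.60, 10.69 and 10.65 in B6 females. Females of the strains did not overlap, while 1 KK male stood above the lowest B6 male. The difference of -0.12 (95% interval -0.20 to -0.03) did not pass the adjustment over all probe sets (limma, adjusted p = 0.0893).

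Txnrd2 (chromosome 16, 18426417 to 18479073), the selenoprotein that reduces Txn2 with NADPH, lay between 8.09 and 8.26 in the 6 KK mice and between 8.08 and 8.28 in the 6 B6 mice. The strains overlapped almost fully, and the difference was 0.0020 (95% interval -0.09 to 0.10, adjusted p = 0.99). Glrx2 (chromosome 1, 143739224 to 143749678), a glutaredoxin that uses glutathione in mitochondria, lay between 9.58 and 9.77 in KK and between 9.65 and 9.73 in B6, with a difference of -0.05 (95% interval -0.15 to 0.05, adjusted p = 0.658). Of the 3 genes of the thioredoxin relay, Prdx3 alone was called.

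Among the glutathione peroxidases, Gpx1 (chromosome 9, 108339080 to 108340342), which removes hydrogen peroxide in cytosol and mitochondria, read 12.20, 12.11 and 12.17 in KK males and 12.22, 12.22 and 12.24 in KK females. In B6 it read 12.27, 12.31 and 12.26 in males and 12.34, 12.26 and 12.30 in females. All 6 KK mice stood below all 6 B6 mice, yet the difference was small, -0.09 (SE 0.039, 95% interval -0.18 to -0.01), and was not called (adjusted p = 0.167).

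Gpx4 (chromosome 10, 80047166 to 80056439), which reduces lipid hydroperoxides in membranes, read 7.03, 6.80 and 6.44 in KK males and 6.75, 6.89 and 6.66 in KK females, against 6.17, 6.63 and 6.63 in B6 males and 6.43, 6.66 and 6.61 in B6 females. It spread more within groups than any of the other 8 genes in males of both strains, with an SD of 0.301 in KK males and 0.263 in B6 males. The strains overlapped, though the lowest KK female (6.6631) stood just above the highest B6 female (6.6584). The difference of 0.24 (95% interval 0.01 to 0.48) was not called (adjusted p = 0.204). With array quality weights it was 0.34 (adjusted p = 0.0323).

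Sod2 (chromosome 17, 13007839 to 13018119), the manganese superoxide dismutase that turns superoxide into hydrogen peroxide in the matrix, read 10.70, 10.62 and 10.73 in KK males and 10.72, 10.62 and 10.72 in KK females. In B6 it read 10.61, 10.56 and 10.56 in males and 10.53, 10.47 and 10.50 in females. All KK mice stood above all B6 mice, by 0.0074 between the nearest pair. The difference of 0.15 (SE 0.042, 95% interval 0.06 to 0.24, adjusted p = 0.0413, 1.11-fold) was called over both sexes. Neither sex alone was called, at 0.11 in males (adjusted p = 0.413) and 0.19 in females (adjusted p = 0.0944). The call is close to the threshold, and it was lost when any 1 array other than KK male 2 or KK female 2 was left out (adjusted p up to 0.0906).

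The promoters of the called genes are shown to set their sequence features side by side, as the 250 bases before the transcript start that the RefSeq promoter table of GRCm38.p6 gives, on the gene's own strand. For Idh2 this start lies inside the annotated span of the gene, so the Idh2 window is not the sequence before the outer end of that span. The reference table holds promoters for 9 of the 10 genes. Nnt is not among them. The reference is the C57BL/6J sequence, and KK sequence was not used here. Capitals mark GC boxes (GGGCGG) and CCAAT boxes (CCAAT) on either strand, and no marked motif overlapped another.
Prdx3, chr19:60874539-60874788, minus strand: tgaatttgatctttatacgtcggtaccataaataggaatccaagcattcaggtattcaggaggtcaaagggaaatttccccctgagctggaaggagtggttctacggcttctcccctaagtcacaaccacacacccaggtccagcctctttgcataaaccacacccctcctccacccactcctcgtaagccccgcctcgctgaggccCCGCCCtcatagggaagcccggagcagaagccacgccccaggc
Idh2, chr7:80115351-80115600, minus strand: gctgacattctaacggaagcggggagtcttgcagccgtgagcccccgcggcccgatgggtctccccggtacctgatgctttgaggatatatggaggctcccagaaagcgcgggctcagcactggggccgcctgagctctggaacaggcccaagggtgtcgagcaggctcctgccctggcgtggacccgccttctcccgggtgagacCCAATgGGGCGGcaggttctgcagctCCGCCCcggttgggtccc
Sod2, chr17:13007589-13007838, plus strand: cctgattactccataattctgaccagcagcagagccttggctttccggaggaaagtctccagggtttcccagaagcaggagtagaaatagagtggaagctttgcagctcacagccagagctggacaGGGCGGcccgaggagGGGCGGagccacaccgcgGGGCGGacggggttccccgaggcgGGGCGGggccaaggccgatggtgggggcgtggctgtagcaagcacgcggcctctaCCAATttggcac

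The Sod2 window held 4 GC boxes and 1 CCAAT box, the Idh2 window 2 GC boxes and 1 CCAAT box, and the Prdx3 window 1 GC box and no CCAAT box. At least 1 GC box was found in 32.7% and at least 1 CCAAT box in 33.8% of 32851 mouse promoters of the same length. The core of the antioxidant response element (TGACNNNGC, 10.2% of promoters) and a FOXO site (GTAAACA, 3.17%) had no match in these 3 windows. These matches describe the reference letters only.

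In males alone, 2 of the 9 genes were called between the strains, Nnt higher and Prdx3 lower, where 5.15% of all probe sets were called, 2.08% higher and 3.06% lower. In females 3 were called, Nnt higher and Prdx3 and Idh2 lower, where 6.5% of all probe sets were called, 3.18% higher and 3.31% lower. After quantile or cyclic loess normalization, with array weights or with the interquartile range as a covariate, Sod2 was called higher in females too. With array weights Gpx4 was called higher in males, at 0.46 (adjusted p = 0.0483).

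**Figure D3:**
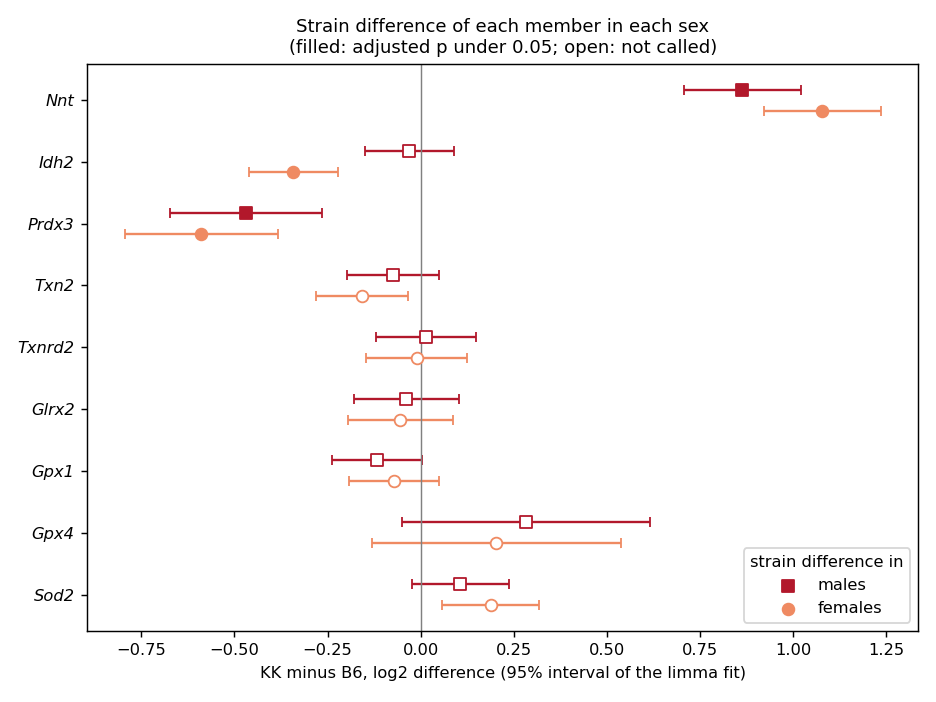
KK minus B6 log2 difference of the 9 genes in males (squares) and females (circles), with 95% intervals from the limma fit and filled symbols where called. Nnt is right of 0 and Prdx3 left of 0 in both sexes, and Idh2 lies left of 0 in females while its male interval covers 0.

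The sex comparisons reuse the arrays of the strain comparisons, so the 2 kinds are not independent. The sexes differed in Nnt within KK and in Idh2 within B6, each lower in males. In KK, Nnt averaged 9.47 ± 0.0553 in males and 9.88 ± 0.0895 in females (SD, n = 3 each). The values did not overlap, which held for 18.6% of all probe sets. The male minus female difference was -0.41 (SE 0.072, 95% interval -0.57 to -0.25, adjusted p = 0.0129), which is 1.33-fold lower in males. It was the only one of the 9 genes called in KK, where 2.17% of all probe sets were called, 0.698% higher and 1.47% lower in males. The call was lost when only the KK arrays were fitted (adjusted p = 0.0658), and without KK male 1 (adjusted p = 0.0503), KK male 2 (adjusted p = 0.0618) or KK female 1 (adjusted p = 0.07). In B6 the Nnt difference was -0.19 (95% interval -0.35 to -0.04, adjusted p = 0.424). The values did not overlap there either, which held for 13.1% of all probe sets.

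Macrophage markers also differed between the sexes of KK. Of 7 measured Kupffer cell and macrophage markers, 6 were lower in KK males than in KK females: Clec4f at -0.97, Vsig4 at -1.58, Cd5l at -1.48, Adgre1 at -1.03, Csf1r at -1.07 and Timd4 at -1.26. Marco differed by -0.19 and was not called. Of all probe sets, 1.47% were called lower in KK males than in KK females. The mean of the 7 markers ranged over 7.40 to 7.83 in KK males, 8.29 to 9.08 in KK females, 7.91 to 8.58 in B6 males and 8.51 to 8.66 in B6 females. Of 7 sinusoidal endothelial markers, Stab2 (-0.40) and Fcgr2b (-0.50) were lower in KK males as well. The part of these cell types in the Nnt result was not tested.

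In B6, Idh2 averaged 9.42 ± 0.0281 in males and 9.76 ± 0.0249 in females (SD, n = 3 each), a difference of -0.35 (SE 0.055, 95% interval -0.47 to -0.23, adjusted p = 0.00724, 1.27-fold lower in males). It was the only one of the 9 genes called in B6, where 1.03% of all probe sets were called, 0.358% higher and 0.674% lower in males. The call was lost when only the B6 arrays were fitted (adjusted p = 0.0585). All 7 macrophage markers read lower in B6 males too, by a median of -0.40, and none of them was called there, while Vsig4 and Adgre1 had an unadjusted limma p under 0.05. Alas2, an erythroid marker, was higher in B6 males by 1.57 (adjusted p = 0.000139). The part of these cell types in the Idh2 result was not tested. In KK, Idh2 averaged 9.39 ± 0.00447 in males and 9.42 ± 0.0455 in females, a difference of -0.03 (95% interval -0.15 to 0.08, adjusted p = 0.784).

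Whether the strain difference depended on sex was tested by the interaction, in which the KK minus B6 difference of females is taken from that of males. None of the 9 genes was called, where 0.141% of all probe sets were (0.066% above and 0.0754% below 0), and 1 gene had an unadjusted limma p under 0.05. That gene was Idh2, at 0.31 (SE 0.078, 95% interval 0.14 to 0.48, adjusted p = 0.316). Nnt stood at -0.22 (95% interval -0.44 to 0.01, adjusted p = 0.796). The sex pattern of neither gene was shown to differ between the strains after adjustment.

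A list of 13 other mitochondrial NADPH and one-carbon genes, all measured, also takes in NAD-dependent enzymes. It had 1 gene higher and 5 lower in KK over both sexes, with a median of -0.13. Of all probe sets, 5.42% were higher and 6.31% lower. Mthfd1l, the mitochondrial formate-making enzyme of one-carbon metabolism, stood 1.91-fold higher in KK, a difference of 0.93 (SE 0.10, adjusted p = 8.1e-05). Aldh4a1, an enzyme of proline breakdown, was lower, at -0.42 (adjusted p = 7.79e-05), and Idh3a and Idh3g, subunits of the NAD-dependent isocitrate dehydrogenase, were lower, at -0.44 (adjusted p = 0.00408) and -0.28 (adjusted p = 0.00137). For each of these 4 genes the 6 KK mice did not overlap the 6 B6 mice, which held for 5.98% of all probe sets. The 4 were picked for the smallest adjusted p of the list, which makes such a gap likely. The remaining called genes were named after their values were seen. They were the third subunit Idh3b at -0.22 (adjusted p = 0.00627) and the mitochondrial NAD kinase Nadk2, which makes NADP, at -0.22 (adjusted p = 0.0147). Me2, Me3, Mthfd2, Mthfd2l and Aldh1l2, on the same list and also named afterwards, were not called.

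A list of 14 other thiol and repair genes, mainly mitochondrial and all measured, had 3 genes higher and 2 lower in KK. Of all probe sets, 5.42% were higher and 6.31% lower. The list median was 0.12. Mgst1, a membrane-bound glutathione transferase, was higher by 0.25 (adjusted p = 0.00376), and Abcb10, a transporter of the inner mitochondrial membrane, by 0.26 (adjusted p = 0.0241). Hagh, a glyoxalase, was lower, at -0.26 (adjusted p = 0.00681), and the glutathione transferase Gstk1 at -0.21 (adjusted p = 0.0164). Glutathione reductase (Gsr), named after its value was seen, was higher by 0.22 (adjusted p = 0.0289). The list had 6 genes higher and 2 lower after quantile normalization, and 5 higher and 1 lower after cyclic loess, where Gstk1 was no longer called (adjusted p = 0.083). Higher calls over all 21212 probe sets rose as well, from 1149 to 1496 after quantile normalization and 1463 after cyclic loess. Lower calls went from 1339 to 1432 and 1440. The calls of Gsr without 6 of the 12 arrays, and of Abcb10 without 4, were lost.

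Of 22 counterparts outside the mitochondria, mainly cytosolic or peroxisomal, 20 were measured. Of these, 2 were higher and 1 lower in KK, with a median of 0.05. The called genes are 15% of the measured ones, beside 11.7% of all probe sets. Glrx, the cytosolic glutaredoxin, read 8.61, 8.55 and 8.81 in KK males and 8.78, 8.89 and 8.90 in KK females, against 8.21, 8.07 and 8.25 in B6 males and 8.11, 8.22 and 8.17 in B6 females. All KK mice stood above all B6 mice, by 0.59 on average (SE 0.058, adjusted p = 3.19e-05, 1.5-fold). Txnip, which binds and inhibits thioredoxin, was lower in KK, at -0.93 (adjusted p = 0.000162), 1.91-fold, again with no overlap. Such a gap between the strains held for 5.98% of all probe sets, and both genes were picked for a small adjusted p. Srxn1, which restores overoxidised peroxiredoxins, was higher by 0.21 over both sexes (adjusted p = 0.011), with 0.45 in males (adjusted p = 0.00167) and -0.03 in females (adjusted p = 0.917). The difference between those 2 values was 0.48 and was not called (limma, adjusted p = 0.10).

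Glrx was called, as given above, while Prdx1, Txnrd1, Txn1, Prdx2, Sod1 and Idh1, further cytosolic relatives of the 9 genes, were not. All of these 6 but Prdx1 were named after their values were seen. Prdx1 differed by 0.16 (adjusted p = 0.0662) and Txnrd1 by 0.17 (adjusted p = 0.163). Both were called higher after quantile normalization (adjusted p = 0.0343 for Prdx1 and 0.0219 for Txnrd1) and after cyclic loess (adjusted p = 0.0163 and 0.0212). Idh1, the cytosolic NADP-dependent isocitrate dehydrogenase, differed by -0.12 (adjusted p = 0.204), Prdx2 by 0.02 (adjusted p = 0.878), and Sod1 by -0.04 (adjusted p = 0.75), which turned to 0.0087 after quantile normalization. Txn1 differed by -0.0030 (adjusted p = 0.982), which turned to 0.0090. The list had 4 genes higher after quantile normalization and 5 after cyclic loess, with 1 lower in each. Over all 21212 probe sets, higher calls also rose, from 1149 to 1496 and 1463, and lower calls from 1339 to 1432 and 1440.

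Selenoprotein genes and genes of selenium handling, which include Gpx1, Gpx4 and Txnrd2, had 2 of 30 measured genes higher and 1 lower in KK, with a median of 0.05. These are 10% of the list, near the 11.7% of all probe sets. Selenow was higher by 0.37 (adjusted p = 0.000494) and Selenof by 0.24 (adjusted p = 0.0266). Dio1, the deiodinase that makes active thyroid hormone in liver, was lower, at -0.37 (adjusted p = 0.00624). Eefsec, the elongation factor for selenocysteine, differed by 0.13 (adjusted p = 0.108). After quantile or cyclic loess normalization 4 genes of this list were higher and 1 lower, with Eefsec among the higher ones (adjusted p = 0.0256 and 0.0257). Higher calls rose over all 21212 probe sets too, from 1149 to 1496 and 1463, and lower calls from 1339 to 1432 and 1440. The Selenof call was lost without 8 of the 12 arrays.

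Genes that track mitochondrial content had 23 of 25 measured, with none higher and 3 lower in KK and a median of -0.06. These are 13.0% of the list, near the 11.7% of all probe sets. Quantile normalization gave 1 higher and 2 lower with a median of -0.01, and cyclic loess 0 higher and 2 lower. Of all 21212 probe sets, 1496 were higher and 1432 lower after quantile normalization, and 1463 and 1440 after cyclic loess. Vdac2, a channel of the outer membrane, was lower, at -0.36 (adjusted p = 0.0146), Immt, which shapes the cristae, at -0.26 (adjusted p = 0.00817), and Phb, a prohibitin of the inner membrane, at -0.30 (adjusted p = 0.0254). Opa1, which fuses inner membranes, differed by -0.17 (adjusted p = 0.0966), and was called lower with the replicate block (adjusted p = 0.0287), array weights (adjusted p = 0.0254) and the interquartile range as a covariate (adjusted p = 0.0404). The call of Phb was lost after quantile (adjusted p = 0.0773) and cyclic loess normalization (adjusted p = 0.0661), and without 4 of the 12 arrays.

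**Figure D4:**
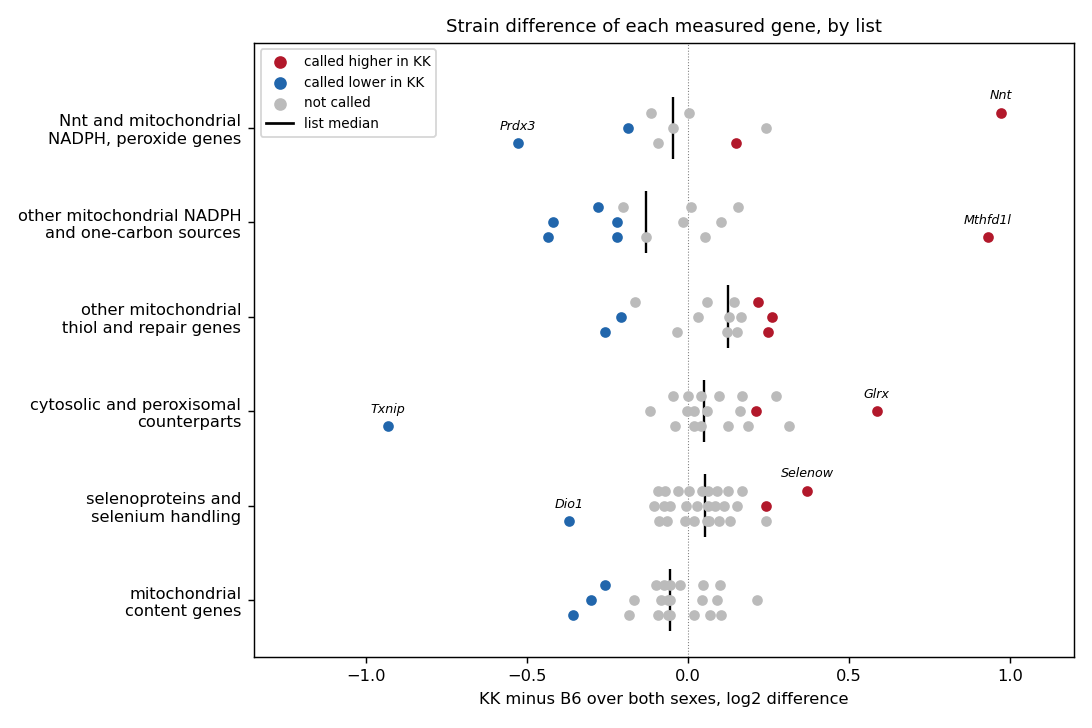
KK minus B6 log2 difference over both sexes of each measured gene, by list. Red points are genes called higher in KK, blue points genes called lower, grey points genes not called, and black bars list medians. The list medians lie between -0.13 and 0.12, and Nnt and Mthfd1l stand farthest to the right.

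Between the sexes, 2.17% of all probe sets were called in KK and 1.03% in B6. In KK, the NADPH and one-carbon list had none of 13 and the selenoprotein list none of 30, with 3 and 6 genes at an unadjusted limma p under 0.05. The thiol and repair list had 1 higher and 1 lower of 14 in males, the dicarboxylate carrier Slc25a10 at 0.53 (adjusted p = 0.00639) and Gstk1 at -0.31 (adjusted p = 0.0445). Srxn1 was the 1 counterpart called, at 0.40 (adjusted p = 0.00879). Ppargc1a, a coactivator that drives mitochondrial biogenesis, was the 1 content gene called, at -0.70 (adjusted p = 0.0213). Slc25a10 and Ppargc1a were named after their values were seen. In B6, none of the 13 NADPH and one-carbon genes, 20 counterparts, 30 selenoprotein genes or 23 content genes was called, and Abcb10, 1 of 14 in the thiol and repair list, was higher in males by 0.45 (adjusted p = 0.0468). At an unadjusted limma p under 0.05 these 4 B6 lists held 2, 3, 3 and 1 genes.

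Markers of other cell types also differed between the strains. Over both sexes, 3 of 7 Kupffer cell and macrophage markers were lower in KK (Marco at -0.74, Adgre1 at -0.59 and Clec4f at -0.41). The other 4 were not called, among them Timd4 at 0.23. In males all 7 read lower in KK, at -0.83 to -0.20. In females they ran from -0.81 to 0.66, with Timd4 (0.66), Vsig4 (0.46) and Cd5l (0.35) reading higher and not called. Over both sexes, 2 of 7 sinusoidal endothelial markers (Lyve1 at -0.74 and Fcgr2b at -0.40) were lower too. So were 2 of 7 stellate cell and fibroblast markers (Lum at -0.64 and Col3a1 at -0.33). Of all probe sets, 6.31% were lower and 5.42% higher in KK. Of 4 measured erythroid and neutrophil markers, 2 were higher, Alas2 by 1.19 and Slc4a1 by 0.34. None of 5 cholangiocyte or 6 lymphocyte markers was called. Their part in the strain differences of Nnt, Prdx3, Idh2 and Sod2 was not tested.

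Among probe sets with 1 symbol, with predicted and unnamed genes passed over, the genes most like Nnt over the 12 arrays were ranked. They were Tfcp2l1 (r = 0.982), Stap1 (0.979), Cyp46a1 (0.979), Prelid2 (0.976) and Abca3 (0.976). The most opposite were Pipox (-0.985), Ces2a (-0.975), Ces2d-ps (-0.972), Rps2 (-0.968) and Mecr (-0.967). None of these 10 lies on chromosome 13. Among the other 8 genes described above, Prdx3 ran most opposite to Nnt (r = -0.883) and Sod2 most alike (r = 0.762). These correlations are a description over arrays that share strain and sex, and they carry no test.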

How the data were processed

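RNA from 12 livers was measured on Affymetrix whole-transcript arrays with probe sets defined by Entrez gene. The deposited values are log2 expression, made by the authors with RMA and the affy package per the submitters' processing notes, whose versions are not given in the sources used here. No scanner files were used, so background and detection were not re-examined, and the number of arrays limits the precision. Of the 21212 probe sets, 18786 carry 1 symbol in the platform annotation, 6 several and 2420 none, and 18775 of the symbols were found in RefSeq (GRCm38.p6). Groups came from the labels.

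In R 4.3.3, limma 3.58.1 (lmFit and eBayes) fitted 1 mean per strain and sex to all 12 arrays, with 11.99 total degrees of freedom and no filter. The 6 comparisons were tested two-sided and adjusted over all probe sets by Benjamini and Hochberg. The fit was also run on simulated arrays with known strain changes and independent noise. That simulation held no sex differences and no correlation between arrays, so it says nothing of those features. Alternatives were quantile and cyclic loess normalization, a filter on probe sets below the median, trended robust moderation, array weights, a replicate block, the interquartile range as a covariate, fitting only the 2 groups compared, and leaving out each array. The genes and lists were chosen with earlier results of these data known. All 10 genes were named, as were up to 4 genes per list with the smallest adjusted p between the strains and up to 5 neighbours of Nnt on each side. The 5 genes with the highest and the 5 with the lowest correlation with Nnt were named too. That ranking used probe sets with 1 symbol and passed over predicted and unnamed genes. Lists are described by counts and medians, with no test of a list.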

Additional observations from a re-analysis of the deposited data

How the results depend on the processing

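Nnt and Prdx3 kept their calls between the strains over both sexes in the 7 alternatives that apply there and with each of the 12 arrays left out, at 0.97 to 1.02 for Nnt and -0.53 to -0.47 for Prdx3 in those alternatives. Idh2 did too, at -0.19 to -0.14 (adjusted p 0.0036 to 0.0411), and Sod2 kept its call in the 7 alternatives only, at 0.15 to 0.21 (adjusted p 0.00202 to 0.0481). Of 414 values of the 9 genes in the 8 alternatives, 388 kept direction and call and 18 turned direction, none of them called. With an array left out, 605 of 648 did, 29 turned and 14 lost the call. The causes were not tested.

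Without 1 array, 2004 to 2371 probe sets were called between the strains over both sexes, 662 to 1163 in males, 905 to 1412 in females, 160 to 512 between the sexes of KK, 142 to 225 in B6, and 19 to 35 for the interaction. Counts moved by over 1.5 times without KK male 1 (662 in males, 201 in KK), KK male 2 (193 in KK, 19 for the interaction), KK female 1 (905 in females, 160 in KK) and B6 male 3 (711 in males, 142 in B6, 19 for the interaction). Of the 9 genes, 1 to 2 were then called higher over both sexes, 0 to 1 lower in males and 0 to 1 lower in KK males than KK females.

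With array weights 2423 probe sets were called between the strains in males, 2058 between the sexes of KK, 363 in B6 and 77 for the interaction. With the interquartile range as a covariate the counts were 1673 in males, 2329 in females and 392 in B6. Fitting only the 2 groups compared gave 190 in KK, with 0 of the 9 genes lower in KK and 0 in B6. Higher genes of the 9 numbered 2 in males with array weights, and 2 in females after quantile or cyclic loess normalization, with array weights or with the covariate (Sod2 at 0.24, 0.22, 0.19 and 0.18).

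Values that turned direction were all uncalled. Between the strains over both sexes, Txn1 gave 0.0090 after quantile and 0.050 after cyclic loess normalization, Sod1 0.0087 and 0.011, and 4833420G17Rik 0.0025 after cyclic loess and 0.015 with the covariate. With array weights Txnrd2 gave -0.0030 and Mrps30 0.010. In males, Txn2 gave 0.0019 after quantile normalization, and Glrx2 0.022 and Idh2 0.031 after both normalizations. Between the sexes of KK, quantile normalization gave Gpx4 0.022, Sod2 0.040 and Idh2 0.023, cyclic loess Sod2 0.021, the covariate Sod2 0.028, and array weights Txn2 -0.0038, Prdx3 -0.051, Glrx2 -0.035 and Gpx4 0.21. In B6, quantile normalization gave Glrx2 0.012. For the interaction, array weights gave Prdx3 -0.013 and Glrx2 -0.017.

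Without 1 array, the strain difference over both sexes of Txn1 ran from -0.020 to 0.011, 4833420G17Rik from -0.068 to 0.040, Txnrd2 from -0.021 to 0.015, Isl1 from -0.048 to 0.031, Fgf10 from -0.049 to 0.038, Parp8 from -0.10 to 0.0025, Emb from -0.00040 to 0.054 and Mrps30 from -0.072 to 0.0045. Txnrd2 ran from -0.00096 to 0.038 in males, from -0.056 to 0.015 in females and from -0.00027 to 0.071 in the interaction. Between the sexes of KK, Sod2 ran from -0.038 to 0.027, Txn2 from -0.021 to 0.025, Gpx4 from -0.15 to 0.15, Glrx2 from -0.017 to 0.075 and Prdx3 from -0.053 to 0.15. In B6, Gpx4 ran from -0.17 to 0.062 and Glrx2 from -0.024 to 0.015. In the interaction, Gpx4 ran from -0.072 to 0.24 and Glrx2 from -0.015 to 0.077.

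Replicate numbers were shared between groups. Same-numbered arrays of different groups correlated at -0.356 to 0.477 after group means were removed, with 10 of 18 pairs above 0.1. Their median was 0.109, against -0.051 for other pairs. Of the 12 arrays, 8 correlated best with an array of their own number. However, the highest correlation between groups, 0.482, joined differently numbered arrays, KK male 3 and KK female 1, with interquartile ranges of 2.87 and 2.97. The same-numbered KK female 1 and B6 male 1, at 2.97 and 2.75, gave -0.356. What the arrays share, by number or by interquartile range, was not tested. The labels give no batch, so the main fit did not use the numbers as a block. With the replicate block 3113 probe sets were called over both sexes, against 2488 without it, and the block changed no call of the 9 genes.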
